A study of Mus musculus with 22 samples.

Results

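Blastocysts of the B6 mouse strain that had been kept in ISM1 medium were compared with B6 blastocysts kept in HTF medium, using the 6 of 22 arrays that the labels give to these conditions. All 22 arrays measured total RNA of blastocysts at embryonic day 3.5, and the other 16 were made from B6 blastocysts in KSOM medium, B6 blastocysts grown in vivo, and CD1 blastocysts in KSOM, HTF or ISM1 medium or grown in vivo. B6 and CD1 are mouse strain backgrounds, and HTF, ISM1 and KSOM are names of embryo culture media whose composition the labels do not give. Each condition used here had 3 arrays, which the study calls biological replicates. The labels do not say how many embryos went into an array, when culture began, or whether replicates came from separate cultures or litters, so the tests measure the spread between these arrays. The deposited bead intensities were normalised to a log2 scale, and 9345 genes were tested after probes had been required to be detected above background at p under 0.05 on at least 3 of the 22 arrays.

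A blastocyst is a hollow ball of cells with an outer trophectoderm, which pumps fluid into the cavity and later forms placenta, and an inner cell mass, which divides into epiblast and primitive endoderm. Before implantation the embryo takes all of its nutrients from the surrounding fluid, so the medium sets the supply of energy substrates, amino acids, salts and water on which its cells depend. Cells answer misfolded protein in the endoplasmic reticulum with the unfolded protein response, in which the transcription factors ATF6 and XBP1 act on chaperone genes through a promoter sequence called the ER stress response element.

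Most genes of the endoplasmic reticulum chaperone list stood lower in ISM1 than in HTF. Most oxidative phosphorylation genes stood slightly higher, and no single gene passed the test across all genes. By limma with Benjamini-Hochberg adjustment, 0 of 9345 genes (0%) had an adjusted p under 0.05, and the smallest adjusted p was 0.184, for Cstdc1. At an unadjusted p under 0.05 there were 172 genes (1.84%). The standard error of a difference was 0.43 on the log2 scale for the median gene. With only the 6 compared arrays in the fit, 530 genes had an unadjusted p under 0.05 by limma. The share of 1.84% therefore depends on which arrays enter the fit. All 3 ISM1 arrays lay above all 3 HTF arrays for 486 genes (5.2%) and below them for 469 genes (5.02%), together 955 genes (10.2%). When the arrays were weighted by how closely they followed their group, the same test called 342 genes higher and 327 lower (7.16% of 9345). With these weights 2334 genes had an unadjusted p under 0.05. The lowest weight among the 6 arrays was on the third ISM1 array (0.579). The highest were on the second HTF array (4.83) and the second ISM1 array (4.26), and the rest had 0.925 to 1.56. The weighted result therefore rests mostly on the second array of each medium.

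The third ISM1 array stood apart from its group, and the arrays of the 2 media did not form separate clusters. Over all tested genes it correlated at 0.926 and 0.941 with the other ISM1 arrays, and at 0.940, 0.965 and 0.973 with the 3 HTF arrays. The first HTF array correlated at 0.970 and 0.955 with its own group and at 0.964 and 0.960 with the first and second ISM1 arrays. The first principal component of the 6 arrays carried 48.6% of the variance and placed the first and second ISM1 arrays at one end and the third at the other, with the HTF arrays between them. Raw median intensities were 127 to 154 in HTF and 142 to 146 in ISM1, and 8646 to 9400 probes per array were detected at p under 0.01. List medians without that array are given beside those with it where they differ by more than 1.5 times or in sign, for lists whose median lies more than 0.1 from 0 in either.

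Markers of the blastocyst lineages were present. The trophectoderm genes Cdx2, Gata3, Eomes, Krt8 and Krt18, the epiblast and inner cell mass genes Pou5f1, Nanog and Sox2, and the primitive endoderm genes Gata6 and Pdgfra were detected on all 6 arrays. Sox17 was detected on 5, Gata4 on 2 and Fgf4 on 0 of the 6. Of 13 blood and immune genes on the array, 10 were detected on 0 of the 6 and 0 on all 6, and of 12 cumulus cell genes 11 were detected on 0. Of 13 reproductive tract genes, 7 were detected on 0 arrays, while Wfdc2 and Foxj1 were detected on all 6. Wfdc2 differed by -0.86 and Foxj1 by 0.07 (-1.19 and 0.11 without the third ISM1 array). The mean level of the 5 tested reproductive tract genes was 6.81 to 6.99 on the HTF and 6.42 to 6.86 on the ISM1 arrays, with 3 of 5 lower in ISM1 and a median difference of -0.27 (-0.17 without the third ISM1 array). The 2 tested blood genes averaged 5.10 to 5.25 in HTF and 4.99 to 5.34 in ISM1 (median -0.04), and the 1 tested cumulus gene 5.26 to 5.68 and 5.50 to 5.91 (0.33). The mean levels of all 3 lists overlapped between the media, while 1 of the 5 reproductive tract genes was lower without overlap, against 5.02% of all genes. The part of these cells in the differences was not tested.

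The ER chaperone list, which also holds regulators and degradation genes such as Xbp1 and Herpud1, held the clearest difference. Of its 18 tested genes, 15 were lower and 3 higher in ISM1, with a median log2 difference of -0.79, while over all tested genes 4617 were lower and 4728 higher with a median of 0.00. All 3 ISM1 arrays lay below all 3 HTF arrays for 8 of the 18 genes, against 5.02% of all genes, and above them for 1, Selenos. The chaperone genes Calr (0.34 ± 1.25) and Dnajb9 (0.19 ± 0.68) were also higher on average, with overlapping arrays. None of the list passed limma after adjustment over all genes (0 of 18), and 6 had an unadjusted p under 0.05, against 1.84% of all genes. The mean level of the list was 9.97, 10.16 and 10.13 on the HTF arrays and 9.29, 9.59 and 9.72 on the ISM1 arrays, so the media did not overlap. Without the third ISM1 array 15 of the 18 were still lower, with a median of -0.79. With array weights, which rest mostly on the second array of each medium, limma called 8 of the 18 at an adjusted p under 0.05. All 8 were lower, and the share over all genes was 7.16%. The median moved to -0.51 without background correction and to -0.49 when dim probes were kept.

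Hspa5 encodes BiP, the main chaperone of the ER lumen and the sensor partner of the unfolded protein response. Its log2 level was 8.82, 9.18 and 9.59 on the HTF arrays and 7.69, 8.41 and 8.77 on the ISM1 arrays. The highest ISM1 array lay just under the lowest HTF array, and the difference was -0.91 ± 0.39 (SE, n = 3 and 3; 95% interval -1.72 to -0.09), a 1.88-fold lower level. Dnajc3, which encodes the BiP cochaperone P58IPK, had the list's widest difference at -1.35 ± 0.62, from 9.31, 9.71 and 9.70 in HTF to 7.59, 7.73 and 9.34 in ISM1. The third ISM1 array overlapped the HTF arrays. Xbp1, the transcription factor that is spliced during the response, was at 10.95, 11.58 and 12.15 in HTF and 10.01, 10.64 and 11.14 in ISM1, a difference of -0.96 ± 0.40 with 1 array of each medium overlapping.

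The protein disulfide isomerases, which form and rearrange disulfide bonds in secretory proteins, lay on the same side. Pdia3, which acts with the lectin chaperones, was at 11.81, 11.71 and 12.22 in HTF and 10.64, 10.69 and 11.45 in ISM1, with a difference of -0.99 ± 0.66 and no overlap. Pdia6 was lower by a mean of 0.94 with overlapping arrays: its levels were 8.93, 9.42 and 9.49 in HTF and 7.55, 8.49 and 8.97 in ISM1. The other genes whose arrays did not overlap are named after their values were seen. Hsp90b1, the ER form of HSP90 (GRP94), differed by -0.88 ± 0.40 and Herpud1, a membrane component of ER-associated degradation, by -0.90 ± 0.39. Creld2, a secreted disulfide isomerase-like protein, differed by -0.89 ± 0.41, Pdia4 by -0.81 ± 0.76, Wfs1, an ER membrane glycoprotein, by -0.77 ± 0.62 (-0.43 without the third ISM1 array), and P4hb, the founding disulfide isomerase, by -0.50 ± 0.26. Selenos, a selenoprotein of ER-associated degradation, lay 0.53 ± 0.40 higher in ISM1.

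**Figure D1:**
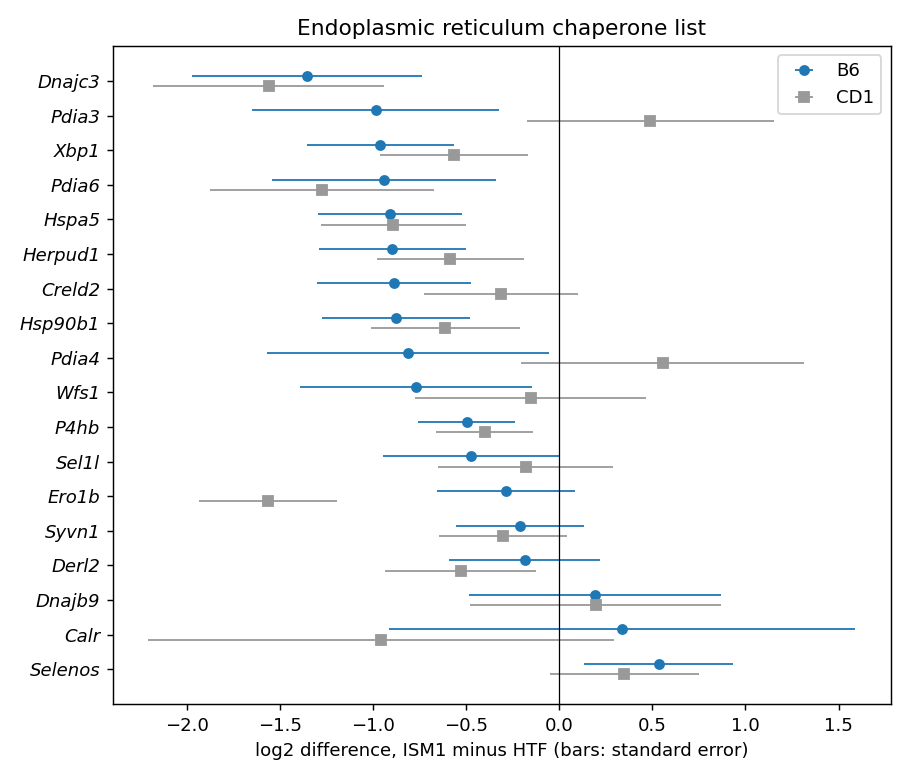
Log2 difference between ISM1 and HTF (x axis, ISM1 minus HTF) for the 18 tested genes of the ER chaperone list (y axis), in B6 (blue circles) and CD1 (grey squares), with bars of 1 standard error of the difference. In B6, 15 of the 18 points lie left of 0, and Pdia3 and Pdia4 are the members on opposite sides of 0 in the strains by more than 1 standard error in B6.

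The promoters of these genes are shown because 8 of the 18 hold the full ER stress response element, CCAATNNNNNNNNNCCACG, searched on both strands in the window from 250 bases before to 50 bases after the RefSeq start of each gene. The sequences are RefSeq's on GRCm38.p6, 5′ to 3′ along the gene's strand, with the matched element in capitals. Hspa5 lies at chr2:34771840-34772139 on the plus strand, Hsp90b1 at chr10:86705395-86705694 on the minus strand with 2 matches, and Dnajc3 at chr14:118937682-118937981 on the plus strand.
Hspa5: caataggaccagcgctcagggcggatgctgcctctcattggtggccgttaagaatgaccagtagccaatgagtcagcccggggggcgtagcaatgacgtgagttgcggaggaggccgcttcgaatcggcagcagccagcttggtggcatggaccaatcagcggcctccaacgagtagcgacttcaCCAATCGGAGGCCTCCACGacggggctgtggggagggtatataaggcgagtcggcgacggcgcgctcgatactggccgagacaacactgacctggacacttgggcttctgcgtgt
Hsp90b1: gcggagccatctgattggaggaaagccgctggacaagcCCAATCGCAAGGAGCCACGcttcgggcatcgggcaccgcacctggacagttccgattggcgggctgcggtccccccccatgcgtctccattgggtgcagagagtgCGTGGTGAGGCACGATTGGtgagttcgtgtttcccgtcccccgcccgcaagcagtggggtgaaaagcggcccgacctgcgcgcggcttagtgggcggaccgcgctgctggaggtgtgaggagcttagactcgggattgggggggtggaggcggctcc
Dnajc3: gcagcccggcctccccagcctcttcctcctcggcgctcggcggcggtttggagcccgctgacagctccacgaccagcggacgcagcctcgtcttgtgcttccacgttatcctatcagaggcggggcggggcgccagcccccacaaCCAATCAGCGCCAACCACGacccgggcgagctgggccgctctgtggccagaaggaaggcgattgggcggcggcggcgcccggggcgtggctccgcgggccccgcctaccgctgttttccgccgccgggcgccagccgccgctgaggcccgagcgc
The element matched in 44.44% of the 18 listed genes, in 39 of all 32817 promoters in the table (0.1188%) and in 12 of the 7640 tested genes with a promoter in it (0.1571%). The list was chosen for its ER function, which this element is known to serve. These shares therefore describe the choice of the list and not a difference between the media.

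The matches are read along the element, with the spacer between its CCAAT and CCACG ends in lower case. The search required both ends, so the matches could differ only in the spacer. They are set out for the members whose levels are given here, with the first Hsp90b1 match on the gene's strand and the second, like that of Creld2, on the opposite strand.
Hspa5: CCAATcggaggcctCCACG
Dnajc3: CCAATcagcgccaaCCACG
Pdia6: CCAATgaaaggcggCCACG
Hsp90b1: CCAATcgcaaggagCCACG
Hsp90b1: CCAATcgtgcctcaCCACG
Creld2: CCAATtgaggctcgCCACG
Calr, Ero1b and Syvn1 also held a match. Among the 8 genes with a match, 7 were lower in ISM1 with a median difference of -0.88, and 3 were lower without overlap, against 5.02% of all genes. Calr was higher, by 0.34 ± 1.25. Among the 10 without a match, 8 were lower with a median of -0.63, and 5 were lower without overlap. Outside the list, the tested genes with a match were Spats2l (-1.67), Alg12 (-0.46), Calr4 (-0.25) and Pan2 (0.03), all with overlapping arrays. A match describes the letters in this window and does not show that a factor binds there.

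The oxidative phosphorylation list, the subunits of the respiratory complexes and of ATP synthase, showed a small difference spread over many members. Of 69 tested genes 61 were higher in ISM1 and 8 lower, with a median of 0.24. All ISM1 arrays lay above all HTF arrays for 9 of them, against 5.2% of all genes, and below for 0. None passed limma after adjustment (0 of 69), and 2 had an unadjusted p under 0.05, against 1.84% of all genes. The list's mean level was 10.39, 10.22 and 10.14 in HTF and 10.42, 10.62 and 10.47 in ISM1, so the groups were separated by less than the spread within either. Ndufa12, a complex I subunit, was at 9.71, 9.42 and 9.37 in HTF and 10.26, 10.40 and 9.76 in ISM1, a difference of 0.64 ± 0.32. Uqcrb, a complex III subunit, was at 7.77, 7.79 and 7.9997 against 8.33, 8.90 and 8.22, a difference of 0.63 ± 0.40. Both were free of overlap, whereas the cytochrome c oxidase subunits Cox5a (0.69 ± 0.32) and Cox6a1 (0.65 ± 0.49) were higher on average with overlapping arrays. The genes of this list were measured on the same arrays and are not independent of each other.

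**Figure D2:**
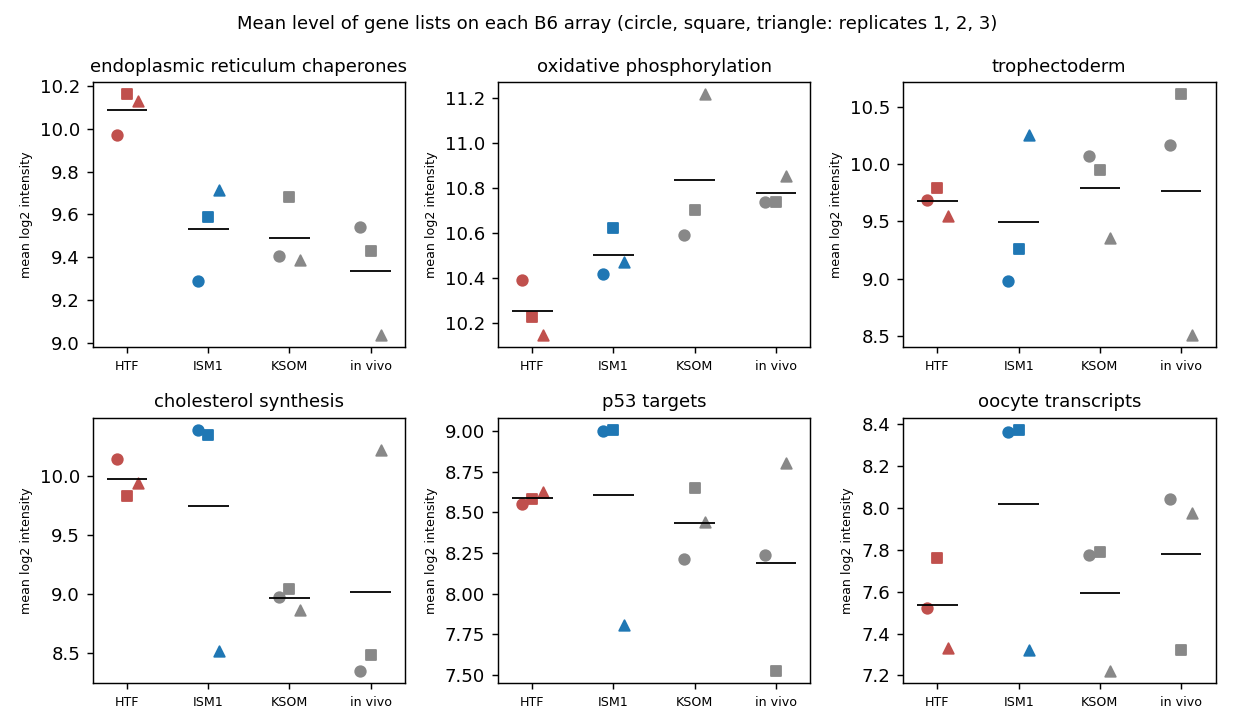
Mean log2 normalised intensity (y axis) over the tested genes of 6 lists on each of the 12 B6 arrays, by condition (x axis), with a line at the mean of 3 arrays. The ER chaperone and oxidative phosphorylation means of ISM1 and HTF do not overlap, while in the other 4 lists the third ISM1 array (triangle) lies away from the first and second.

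Levels in the other B6 groups are given side by side without a test, since they would share arrays. The ER chaperone list averaged 10.09 ± 0.10 (SD, n = 3) in HTF, 9.53 ± 0.22 in ISM1, 9.49 ± 0.16 in KSOM and 9.34 ± 0.26 in vivo. The neighbours from ISM1 to in vivo lay within their spread of each other. The oxidative phosphorylation list averaged 10.25 ± 0.13 in HTF, 10.50 ± 0.11 in ISM1, 10.84 ± 0.34 in KSOM and 10.78 ± 0.07 in vivo.

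Among single genes detected on all 6 arrays and without overlap between the media, the 10 with the widest differences in each direction were taken. The 10 higher genes differed by 1.63 to 3.06 on the log2 scale (3.09-fold to 8.33-fold), and the 10 lower genes by -1.99 to -1.57. Of the 6257 genes detected on all 6 arrays, 340 (5.43%) lay above and 321 (5.13%) below without overlap. These 20 genes were ranked on this contrast, so their values are a description.

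**Figure D3:**
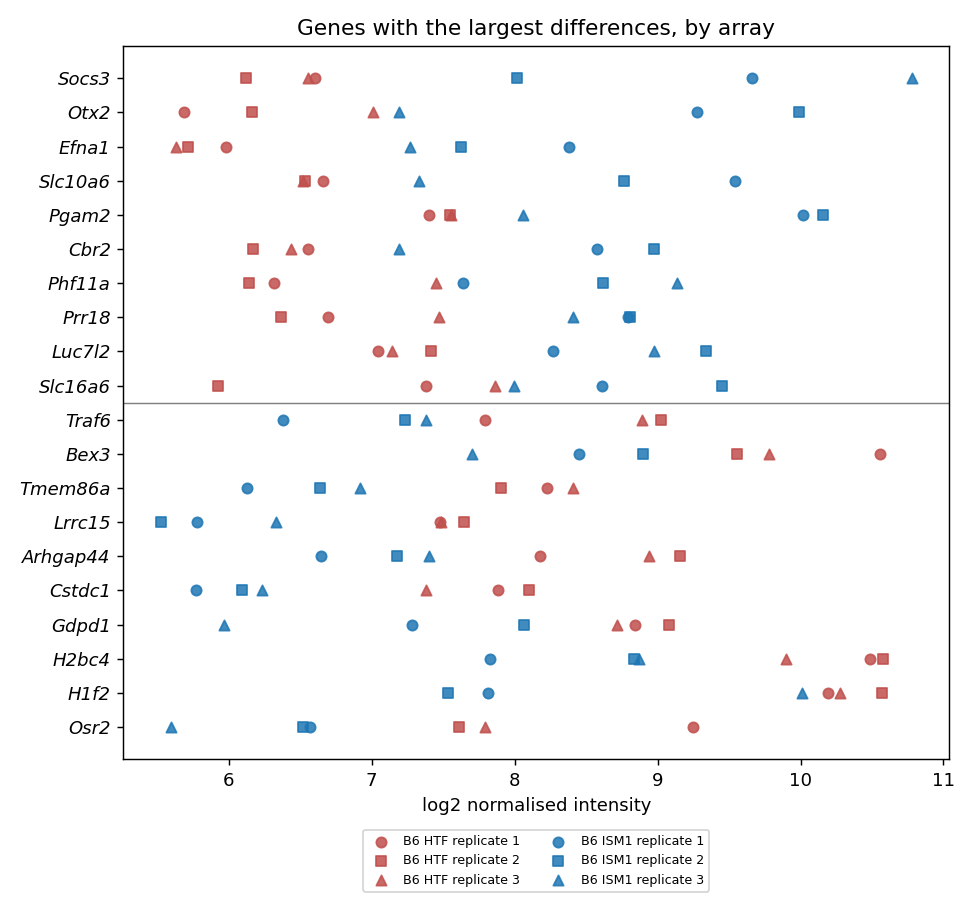
Log2 normalised intensity (x axis) on each of the 6 arrays for the 10 genes higher (above the line) and the 10 genes lower (below the line) in ISM1, with HTF in red, ISM1 in blue and one symbol per replicate. The colours do not overlap in any row, by the rule that chose the genes, and the distance between them is smallest for H1f2, Otx2 and Slc16a6.

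Socs3, the feedback inhibitor of LIF and STAT3 signalling, had the widest difference. It was at 6.61, 6.12 and 6.56 in HTF and at 9.66, 8.02 and 10.78 in ISM1, 3.06 ± 0.90 higher on the log2 scale (95% interval 1.17 to 4.94; limma adjusted p = 1.00). The ISM1 arrays spread over more than 2 log2 units and all lay above HTF. Otx2, a homeobox factor of the early epiblast, was at 5.69, 6.16 and 7.01 in HTF and 9.28, 9.99 and 7.19 in ISM1, with the third ISM1 array close to HTF. Efna1, an ephrin ligand, was at 5.98, 5.71 and 5.63 against 8.38, 7.63 and 7.27. Pgam2, the muscle form of phosphoglycerate mutase, stood at 7.40, 7.55 and 7.55 against 10.01, 10.16 and 8.06, and Cbr2, a carbonyl reductase, at 6.55, 6.17 and 6.44 against 8.58, 8.97 and 7.19. In both the third ISM1 array was the lowest of its group. Phf11a, a PHD finger protein, differed by 1.83 ± 0.60, and a second probe for it by 1.92. The transporters Slc10a6 (1.98 ± 1.37) and Slc16a6 (1.63 ± 1.24), Prr18 (1.82 ± 0.77) and the splicing factor Luc7l2 (1.66 ± 0.83) completed the 10. A second Luc7l2 probe differed by -0.32, in the other direction.

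On the lower side, Cstdc1, a cystatin-family protease inhibitor gene, was at 7.88, 8.10 and 7.38 in HTF and 5.77, 6.09 and 6.23 in ISM1. The gap between the groups was wider than either group's range, and the difference was -1.76 ± 0.30 (95% interval -2.39 to -1.12; limma adjusted p = 0.184), a 3.38-fold lower level. H2bc4, a replication-dependent H2B histone gene, was at 10.49, 10.58 and 9.90 against 7.83, 8.84 and 8.87, a difference of -1.81 ± 0.44. The linker histone gene H1f2 was at 10.19, 10.57 and 10.28 against 7.81, 7.53 and 10.01, with the third ISM1 array next to HTF. Osr2, a zinc finger factor, differed by -1.99 ± 0.60, Gdpd1, a lysophospholipase D of the glycerophosphodiester phosphodiesterase family, by -1.77 ± 0.64, and Arhgap44 by -1.69 ± 0.94. Lrrc15, a leucine-rich repeat membrane protein, differed by -1.66 ± 0.87, Tmem86a, a lysoplasmalogenase, by -1.62 ± 0.73, and Bex3 by -1.61 ± 1.07. Traf6, a ubiquitin ligase of innate immune signalling, differed by -1.57 ± 0.69 and by -0.43 on its second probe.

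The 12 genes with the smallest unadjusted p of limma, of which Cstdc1 and H2bc4 are described above, were chosen after their values were seen. Ckmt1, the mitochondrial creatine kinase of many tissues, was at 11.81, 11.37 and 11.55 in HTF and 12.83, 12.80 and 12.52 in ISM1, a difference of 1.14 ± 0.24 (limma adjusted p = 0.583). Anxa3, an annexin, was at 10.07, 10.48 and 10.28 against 11.48, 11.77 and 11.17, and Neu1, a lysosomal sialidase, at 11.10, 11.06 and 10.86 against 12.11, 12.41 and 11.58. In these genes every ISM1 array lay above every HTF array. Fxyd4, a small regulator of the sodium pump, was at 5.77, 5.62 and 5.42 against 7.04, 7.16 and 7.27, and its second probe differed by 1.40. Luzp2 was detected on 0 of 3 HTF and 3 of 3 ISM1 arrays, at least 2.41-fold higher in ISM1. Rab3d, a small GTPase of secretory vesicles, was detected on 3 HTF and 0 ISM1 arrays, at least 2.28-fold lower, and Lpar2, a lysophosphatidic acid receptor, at least 1.61-fold lower with the same detection. Uchl1, a deubiquitinase, was at 8.41, 6.95 and 6.55 against 5.24, 5.80 and 5.16, and was detected on 1 of 3 ISM1 arrays. For Cd28 the probe tested differed by -1.96 and its second probe by -0.32. Gm773, a gene with a model name, differed by -3.30 and was detected on 2 of 3 ISM1 arrays.

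**Figure D4:**
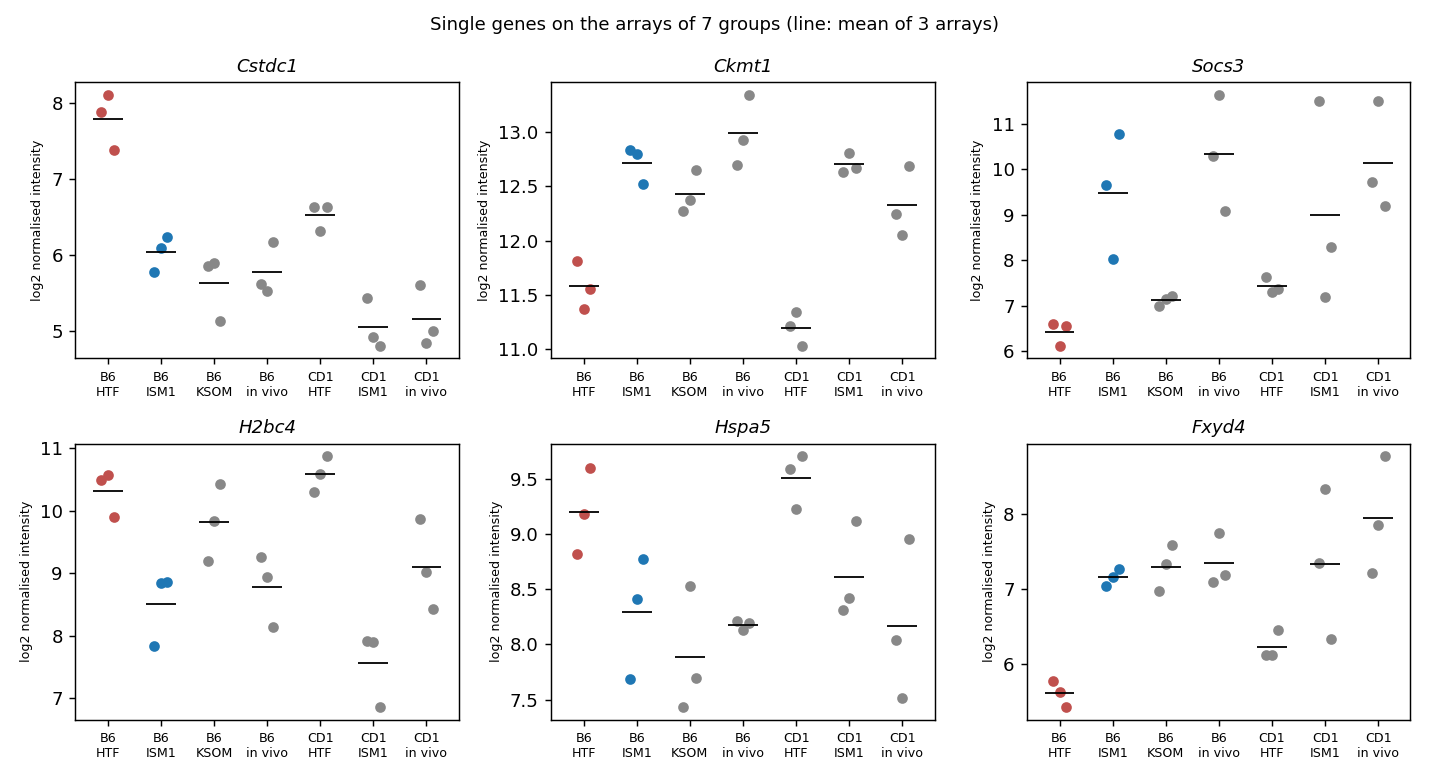
Log2 normalised intensity (y axis) of 6 genes on the arrays of the 7 groups that have 3 arrays (x axis), with a line at each mean and B6 HTF in red, B6 ISM1 in blue and the other groups in grey. Cstdc1 and Hspa5 are highest, and Ckmt1 and Fxyd4 lowest, in the HTF groups of both strains, while Socs3 in KSOM lies near HTF.

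The levels of these genes in the other conditions had different orders. Ckmt1 averaged 11.58 ± 0.22 (SD, n = 3) in B6 HTF, 12.43 ± 0.20 in KSOM, 12.72 ± 0.17 in ISM1 and 12.99 ± 0.33 in vivo, and the arrays of each of the last 3 overlapped with the next. Cstdc1 averaged 7.79 ± 0.37 in HTF, 6.03 ± 0.24 in ISM1, 5.77 ± 0.34 in vivo and 5.62 ± 0.43 in KSOM. For Socs3, KSOM at 7.13 ± 0.11 was nearer to HTF at 6.43 ± 0.27 than to ISM1 at 9.49 ± 1.39 or in vivo growth at 10.34 ± 1.28. H2bc4 averaged 10.32 ± 0.37 in HTF, 9.82 ± 0.62 in KSOM, 8.78 ± 0.57 in vivo and 8.51 ± 0.59 in ISM1. Aqp9, a water and glycerol channel, was at 11.61 ± 0.07 in HTF, 11.76 ± 0.19 in KSOM, 12.47 ± 0.08 in ISM1 and 12.60 ± 0.35 in vivo. HTF and KSOM overlapped in Aqp9, as did ISM1 and in vivo growth.

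Genes of signalling and lineage were examined next. In this list of LIF-STAT3 and FGF-ERK genes, 12 of 15 were higher in ISM1 with a median of 0.25, and 3 of 15 were higher and 1 lower without overlap, against 5.2% and 5.02% of all genes. The list's mean was 6.76, 6.87 and 6.94 in HTF and 7.11, 7.19 and 7.63 in ISM1. It did not overlap, but without the third ISM1 array 8 of 15 were higher and 7 lower with a median of 0.07. Dusp4, a phosphatase that ERK signalling induces, was at 10.77, 10.38 and 10.28 in HTF and 12.13, 12.55 and 10.61 in ISM1, where the third array lay among the HTF arrays. Etv5, an ETS factor downstream of FGF, was at 5.52, 5.65 and 5.68 against 6.26, 5.93 and 6.82, a difference of 0.72 ± 0.46 without overlap (0.48 without the third ISM1 array).

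The trophectoderm list separated the ISM1 arrays from each other rather than the media. Its mean level was 9.69, 9.79 and 9.54 in HTF, and 8.98, 9.26 and 10.25 in ISM1, with 12 of 18 genes lower, a median of -0.17 and 0 genes without overlap, against 10.2% of all genes. Without the third ISM1 array 13 of 18 were lower with a median of -0.36. Gata2, a trophectoderm transcription factor, was at 8.49, 9.96 and 9.25 in HTF and 6.42, 7.08 and 11.33 in ISM1, and Eomes at 9.99, 9.40 and 9.55 against 7.97, 8.99 and 10.86. In both genes the third ISM1 array was the highest of the 6 and the first the lowest. Cdx2, the master regulator of trophectoderm, varied less, at 13.40, 13.55 and 13.18 against 12.78, 12.72 and 13.30. In RNA of whole blastocysts, fewer cells of a type and less RNA per cell cannot be told apart. The epiblast and inner cell mass list had 8 genes higher and 8 lower with a median of 0.02, and the primitive endoderm list 7 higher and 10 lower with a median of -0.03 (-0.18 without the third ISM1 array). Pdgfra, the receptor that marks primitive endoderm, followed the split of the ISM1 arrays, at 10.13, 10.27 and 11.09 in HTF and 7.95, 8.28 and 11.40 in ISM1. Esrrb, a pluripotency factor, was at 11.78, 11.39 and 11.62 against 11.34, 10.74 and 11.09, a difference of -0.54 ± 0.42 without overlap.

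Cholesterol synthesis, p53 target and oocyte genes split the ISM1 arrays the other way. The cholesterol list averaged 10.14, 9.83 and 9.94 in HTF and 10.39, 10.34 and 8.51 in ISM1. Its median was -0.32 with all arrays and 0.40 without the third ISM1 array, a change of direction. Sqle, the squalene epoxidase of the pathway, was at 12.74, 12.66 and 12.91 in HTF and 13.11, 13.17 and 10.41 in ISM1, and Fdps, farnesyl diphosphate synthase, at 14.15, 13.72 and 13.49 against 13.75, 13.46 and 11.30. The p53 target list averaged 8.55, 8.58 and 8.63 in HTF and 9.001, 9.010 and 7.81 in ISM1. Its median was -0.02 with 8 of 17 higher, and 0.37 with 12 of 17 higher without the third ISM1 array. Bbc3 (PUMA), a proapoptotic BH-domain protein, was at 8.58, 9.40 and 9.17 against 10.32, 10.45 and 7.86. Tnfrsf10b, a death receptor, was at 7.94, 8.05 and 7.59 against 9.64, 9.70 and 6.79. Of the 16 oocyte transcripts 14 were higher with a median of 0.56, and without the third ISM1 array 11 were higher with a median of 1.09. Padi6, a maternal factor of the oocyte's cytoplasmic lattices, was at 8.53, 8.72 and 7.87 against 10.33, 9.73 and 7.23. These 4 lists moved between ISM1 arrays by more than between media. Genes without overlap were 0 of 18 in the cholesterol, 0 of 17 in the p53 target and 0 of 18 in the trophectoderm list. The oocyte list had 1 of 16, lower in ISM1, and the share over all genes was 10.2%.

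The histone list, 31 tested replication-dependent genes, had 18 lower and 13 higher with a median of -0.14 in B6, and 4 were lower and 1 higher without overlap, against 5.02% and 5.2% of all genes. Leaving out one array moved this median between -0.25 (without the third ISM1 array) and 0.063. Glycolysis and glucose transport genes had 10 of 18 lower with a median of -0.24 (-0.15 without the third ISM1 array). Tricarboxylic acid cycle genes had 8 of 14 lower (median -0.08), fatty acid synthesis genes 10 of 14 (-0.13) and imprinted genes 11 of 18 (-0.12). Without the third ISM1 array these medians were -0.19, -0.021 with 7 of 14 lower, and 0.020 with 9 of 18 lower. With all arrays, the medians of amino acid transporters (0.09), the amino acid starvation response (0.02), heat shock proteins (-0.07) and oxidative stress genes (0.01) lay within 0.1 of the median of all genes. So did those of fluid transport and junction genes (0.06), DNA methylation and chromatin genes (0.09), cell cycle genes (0.01), ribosomal proteins (0.01) and sex-linked genes (0.02). Without the third ISM1 array the medians were -0.21 for amino acid transporters, 0.17 for the starvation response, 0.13 for oxidative stress, -0.12 for fluid transport and junction genes and 0.100 for ribosomal proteins. The list of 2-cell stage transcripts had 9 of 14 higher, with 3 of its genes detected on all 6 arrays and a median of 0.48 (0.29 without the third ISM1 array).

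Within these lists some members lay apart without overlap, against 5.2% higher and 5.02% lower over all genes. They were 1 of 14 fatty acid synthesis genes and 1 of 18 imprinted genes, both lower. Of 20 oxidative stress genes 4 were higher and 1 lower, and of 16 amino acid transporters 1 was higher and 1 lower. Of 24 amino acid starvation response genes 3 were higher and 2 lower. In fatty acid synthesis Elovl6, which elongates palmitate, was at 13.07, 12.22 and 12.64 in HTF and 11.52, 11.54 and 12.13 in ISM1, a difference of -0.91 ± 0.35. Among imprinted genes Mest, expressed from the paternal allele, was at 7.53, 7.77 and 7.52 against 6.38, 6.84 and 6.41, and its second probe differed by -0.89. Both probes of Mest lay on the same side. Among oxidative stress genes Gpx1, a glutathione peroxidase, was at 10.75, 9.78 and 10.14 against 11.65, 11.47 and 11.14, while Srxn1, the sulfiredoxin that restores peroxiredoxins, was at 10.69, 10.36 and 10.39 against 8.90, 9.34 and 9.83. A second Srxn1 probe differed by -0.10. In amino acid supply Slc3a2, the heavy chain of several amino acid transporters, differed by 1.21 ± 0.49 and Asns, asparagine synthetase, by 0.78 ± 0.52 (0.41 without the third ISM1 array), and Slc36a1, a proton-coupled amino acid transporter, by -0.91 ± 0.50. Asns was at 11.12, 11.25 and 12.30 in ISM1 against 10.51, 10.90 and 10.90 in HTF, and the highest value was that of the third ISM1 array.

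The same media were compared in CD1 blastocysts, which share no array with the B6 comparison. In CD1, limma called 4 of 9345 genes (0.0428%) at an adjusted p under 0.05, 3 lower and 1 higher in ISM1. At an unadjusted p under 0.05 there were 335 (3.58%). The 4 were H2bc4 at -3.03 (adjusted p = 0.0225), Tgfbr2, a TGF-beta receptor, at -2.47 (0.0411), BC048679 at -1.31 (0.0366) and Ckmt1 at 1.51 (0.0366). In B6 the same genes differed by -1.81, -1.22, -0.49 and 1.14, each without overlap between the media, against 10.2% of all genes. Tgfbr2 was detected on 4 of the 6 B6 arrays, and its B6 difference ranged from -1.66 to -0.47 over the alternatives. These calls did not hold under every fit: limma called 0 genes with only the compared arrays in the fit, 0 with the replicate number as a block, and 0 without any one of the 3 CD1 HTF arrays or without the first CD1 ISM1 array. It called H2bc4 and BC048679 without the second CD1 ISM1 array, and without the third it called Axl and none of the 4. When a B6 array was left out, which changes only the shared spread, it called the 4 without the second HTF array and H2bc4 alone without any of the other 5. The test of the strain difference called 0 of 9345 genes (0%), with 56 at an unadjusted p under 0.05 (0.599%), where the smallest adjusted p was 1.00. No gene is therefore shown to respond differently in the strains, and the interval of a single gene's strain difference was wide: for H2bc4 the difference was 1.22 ± 0.63.

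Across the 9345 genes the B6 and CD1 differences correlated at r = 0.48 (Spearman 0.42), as a description over genes that are not independent. They had the same sign for 63.4% of all genes and for 76.5% of the 955 genes without overlap in B6. Of those 955 genes, 184 (19.3%) were also without overlap in CD1, where 813 of all genes (8.7%) were. The direction was the same for 178 of them, 67 higher and 111 lower in ISM1, which is 18.6% of the B6 and 21.9% of the CD1 genes. It was opposite for 6. Of the 10 genes highest in B6, 9 had the same sign in CD1 and 0 were without overlap there, and of the 10 lowest, 10 had the same sign and 5 were without overlap.

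**Figure D5:**
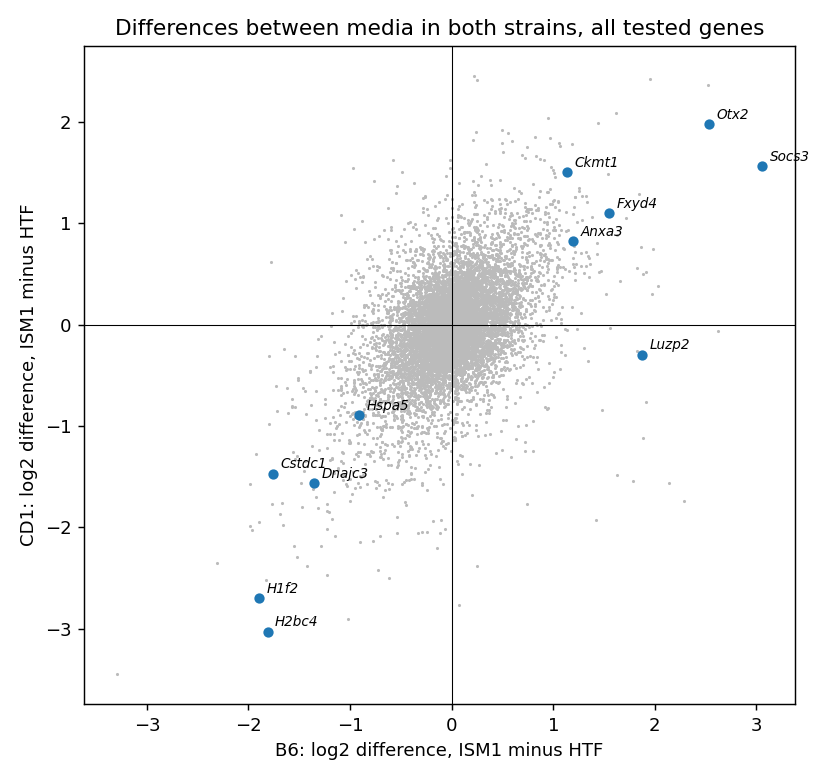
Log2 difference between ISM1 and HTF in B6 (x axis) against the same difference in CD1 (y axis) for all 9345 tested genes (grey), with 11 genes in blue. Socs3, Otx2 and Ckmt1 lie in the upper right, H2bc4, H1f2 and Cstdc1 in the lower left, and Luzp2 at 1.88 in B6 and -0.30 in CD1.

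Single genes and lists carried over to different extents. Cstdc1 differed by -1.76 in B6 and -1.47 in CD1, Uchl1 by -1.90 and -1.95, Gdpd1 by -1.77 and -1.77 and Hspa5 by -0.91 and -0.89, all without overlap in both strains. Socs3 differed by 3.06 in B6 and 1.56 in CD1, where the arrays overlapped. The ER chaperone list had a CD1 median of -0.46, with 14 of 18 lower and 6 lower without overlap, against 5.16% of all genes in CD1. Within it the 8 genes with the ER stress response element had a CD1 median of -0.92 and the 10 without it -0.17, a split that was chosen after values had been seen. Pdia3 and Pdia4 differed by 0.49 and 0.55 in CD1, on the other side from B6. The oxidative phosphorylation list had 28 of 69 higher in CD1 with a median of -0.04, so its B6 direction was not repeated there, and the difference between strains was called for 0 genes. The histone list was lower in CD1 for 27 of 31 genes with a median of -0.73. The first CD1 ISM1 array was high in the trophectoderm list (10.35, against 9.33 and 8.53 on the others) and low in the cholesterol list (8.27, against 10.21 and 9.94), the same combination as the third B6 ISM1 array. The B6 arrays of in vivo growth were split in the same way. They were at 10.17, 10.61 and 8.50 in the trophectoderm list and at 8.35, 8.48 and 10.22 in the cholesterol list.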

How the data were processed

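RNA from 22 blastocyst samples was measured on Illumina bead arrays after amplification and biotin labelling, per the labels' protocols. The deposited table gives a linear bead intensity, not normalised between arrays, for 25697 probes on each array. Beside it stands a deposited detection p-value for each probe, whose method is not given in the sources used here. A second table deposited by the authors holds log2 values, quantile-normalised as judged from their identical distributions, and was used as an alternative. BeadStudio 3.2, RMA and lumi are named in the submitters' processing notes.

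Intensities were background-corrected with the detection p-values, offset by 16, quantile-normalised and put on the log2 scale with neqc in limma 3.58.1 (R 4.3.3). The filter on detection kept 12992 probes. A single symbol was available for 23978 of the probes and none for the other 1719, per the platform annotation, and the brightest kept probe stood for its gene. All 22 arrays entered 1 linear model of their 8 groups, by lmFit and eBayes (14 residual and 3.51 prior degrees of freedom), two-sided, with Benjamini-Hochberg adjustment over 9345 genes and a threshold of 0.05. The script was tested on simulated data. The number of arrays limits the precision, and no slide or scan was given.

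The genes named were the 10 widest differences each way among named genes detected and without overlap on the 6 arrays, up to 4 detected members per list with the widest differences, genes called in CD1, and a fixed set of blastocyst genes. Of these H19 and Trp53 were not analysed here, and 1 further item is not reported here. The members, lists and tests were chosen with earlier results of these data known. For a gene not detected in one medium, the fold is a bound: the other medium's mean against the lowest detected signal of each array. Lists were described by counts and medians with no test. Promoters came from RefSeq's table on GRCm38.p6.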

Additional observations from a re-analysis of the deposited data

How the results depend on the processing

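The 3 arrays of each medium limit the precision, and genes not detected in a medium have only bounds. Embryo numbers, slide and scan were not given, so none could be used as a block. The number of genes called in B6 was 0 under 8 of the 10 alternatives that kept all 6 compared arrays. Among these 8, the fit of only those 6 arrays had 530 genes at an unadjusted p under 0.05. The number called was also 0 without any one array (then with 76 to 317 genes at an unadjusted p under 0.05). It was 1 without background correction (Cstdc1, -0.89, adjusted p = 0.0291 by limma) and 669 with array weights, and the cause was not tested. In CD1, where 4 genes were called, the count was 6 without background correction, 1 with median scaling, 7 without the filter on dim probes, 0 with only the compared arrays in the fit, 1 with the authors' log2 values, 0 to 2 without one CD1 array, and 1 to 4 without one B6 array. The strain difference had 0 calls throughout. Median scaling moved the median of all genes to 0.05 in B6, -0.21 in CD1 and 0.29 in the strain difference. With the replicate number as a block, the count was 0 in each strain. The list medians of B6 could not change under it, because both media held the same replicate numbers. Arrays of the same number correlated in their deviations at 0.45, 0.02 and 0.36, and arrays of different numbers at -0.39 to 0.13. The highest values thus belonged to arrays of the same number. The labels do not say that the numbers pair the samples, and the main fit did not pair them.

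The ER chaperone median was -0.51 without background correction, -0.49 without the filter, and -0.81 to -0.56 without one array. The oxidative phosphorylation median ranged from 0.17 to 0.35 over all alternatives. Leaving out one array gave -0.092 to 0.17 for the amino acid starvation response, -0.21 to 0.23 for amino acid transporters, -0.064 to 0.054 for cell cycle genes and -0.020 to 0.13 for DNA methylation and chromatin genes. It gave -0.18 to -0.049 for glycolysis, -0.14 to 0.086 for heat shock proteins, 0.066 to 0.56 for LIF-STAT3 and FGF-ERK genes, 0.21 to 1.09 for oocyte transcripts and -0.35 to -0.10 for reproductive tract genes. Median scaling gave 0.13 for cell cycle and 0.18 for DNA methylation and chromatin genes, and array weights gave -0.027 for the latter and -0.13 for glycolysis. Without the filter the median was -0.082 for glycolysis, 0.055 for cumulus genes and 0.0048 for reproductive tract genes. With probes detected on all 3 arrays of either medium it was -0.19 for blood genes, -0.50 for reproductive tract genes and 1.67 for 2-cell stage transcripts, and the authors' values gave -0.69 for reproductive tract genes. Why these moved was not tested.

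Named genes whose direction turned had small or irregular differences. Under median scaling Gata6 was at 0.086, Krt8 at 0.16 and Nanog at 0.074. Under array weights Gata4 was at 0.0049, Gata6 at 0.034, Nanog at 0.071 and Sqle at 0.18. Sox17 was at 0.14 without background correction, and Sox2 at -0.38 with the mean of its probes. Leaving out one array turned Calr (lowest -0.63, highest 0.98), Eomes (-1.16 to 0.28), Foxj1 (-0.016 to 0.17), Gata6 (-0.20 to 0.17), Krt18 (-0.61 to 0.010), Krt8 (-0.23 to 0.19), Nanog (-0.15 to 0.079), Pou5f1 (-0.84 to 0.20), Sox17 (-1.62 to 0.79), Sox2 (-0.017 to 0.16) and Sqle (-1.01 to 0.37). The cause was not tested.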
